A study of Mus musculus with 12 samples.

Results

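Aminoacyl-tRNA synthetases join each amino acid to its transfer RNA, the step that supplies charged tRNA to the ribosome. The cytosol and the mitochondrion use largely separate sets of these enzymes, both encoded in the nucleus, and in mouse gene names the mitochondrial enzyme usually carries a 2 (Aars for cytosolic alanyl-tRNA synthetase, Aars2 for its mitochondrial counterpart). Gars and Kars supply the enzyme to both compartments. Several cytosolic synthetases form a multi-synthetase complex, and a number of them are known targets of ATF4, the transcription factor of the amino acid and integrated stress response. The 37 synthetase genes described here were taken by gene name out of 55266 annotated genes. They comprise 20 cytosolic genes, 16 mitochondrial genes and Tarsl2, a cytosolic threonyl-tRNA synthetase-like gene that was kept apart.

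RNA was measured in the mouse embryonic stem cell line E14 carrying the 2C::3xtbGFP reporter, which marks cells that express genes of the 2-cell embryo (2-cell-like cells). All groups shared the line and the reporter, were plated without the 2 kinase inhibitors used for expansion and were collected after 48 h of culture, with sorbitol, a sugar alcohol that raises osmolarity, present for the last 0, 6 or 24 h, as far as the labels say. Each collection was sorted into tbGFP-negative and tbGFP-positive cells (50000 cells, 120 ng of RNA), which gave 6 groups of 2 libraries, 12 in all. The labels name no sample taken at 6 or 24 h in the absence of sorbitol, so the sugar alcohol and anything else that differed between the times cannot be told apart, and they do not state the sorbitol dose. Whether the libraries of a group are separate cultures is not in the labels either, and the p-values therefore reflect only the spread between these libraries, which may be technical. Cells were sorted after the culture, and a fraction at 24 h need not descend from the same fraction at 0 h.

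The libraries held 2306870 to 7900178 counts over 17445 to 26069 genes, and the 2 tbGFP-positive libraries at 6 h had the fewest genes with counts (17545 and 17445). The labelled fractions matched their markers. Summed over 5 genes of the 2-cell program (such as Zscan4c and Duxf3), tbGFP-positive libraries held 17000 to 32300 CPM (counts scaled to library size with TMM factors, as edgeR's cpm gives them) and tbGFP-negative libraries 8.96 to 444 CPM, the upper end at 24 h. The 6 pluripotency markers summed to 1370 to 2600 CPM in all libraries, with Zfp42 at 0 in 1 tbGFP-positive library at 6 h. Markers of primitive endoderm, trophectoderm and fibroblasts, 5 genes each, summed to at most 27.2 CPM.

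The deposited values covered the synthetases unevenly. Counts were deposited per transcript, and they lay almost wholly on transcripts that own at least some exonic sequence: of 35022 annotated transcripts without a base of their own on their strand, 14 had counts, holding 0.0059% of all counts. Another 924 transcripts owned at least 100 bases on their own strand but none once both strands were considered, and 0 of them had counts. Of the 296 transcripts of the 37 genes, 99 had no base of their own and 0 of these had counts. Reads shared by transcripts are thus missing from the values, and 14 of the 37 genes were measured on protein-coding transcripts (at least 90% of at least 100 counts): Aars, Dars, Eprs, Gars, Hars, Rars and Yars among the cytosolic genes, Aars2, Iars2, Mars2, Nars2, Sars2 and Yars2 among the mitochondrial genes, and Tarsl2. The other 23 missed that share or that count, most of them with counts mainly on retained-intron transcripts. Kars had 288 counts, 11.5% of them on coding transcripts and the others on 1 retained-intron transcript, and Farsa, Qars and Tars had 0.0% on coding transcripts. A level therefore compares libraries for 1 gene and never 1 gene with another. Hars and Hars2 overlap at their 5′ ends on opposite strands. Since the counts showed no use of strand, reads from that overlap may be missing from both genes.

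**Figure D1:**
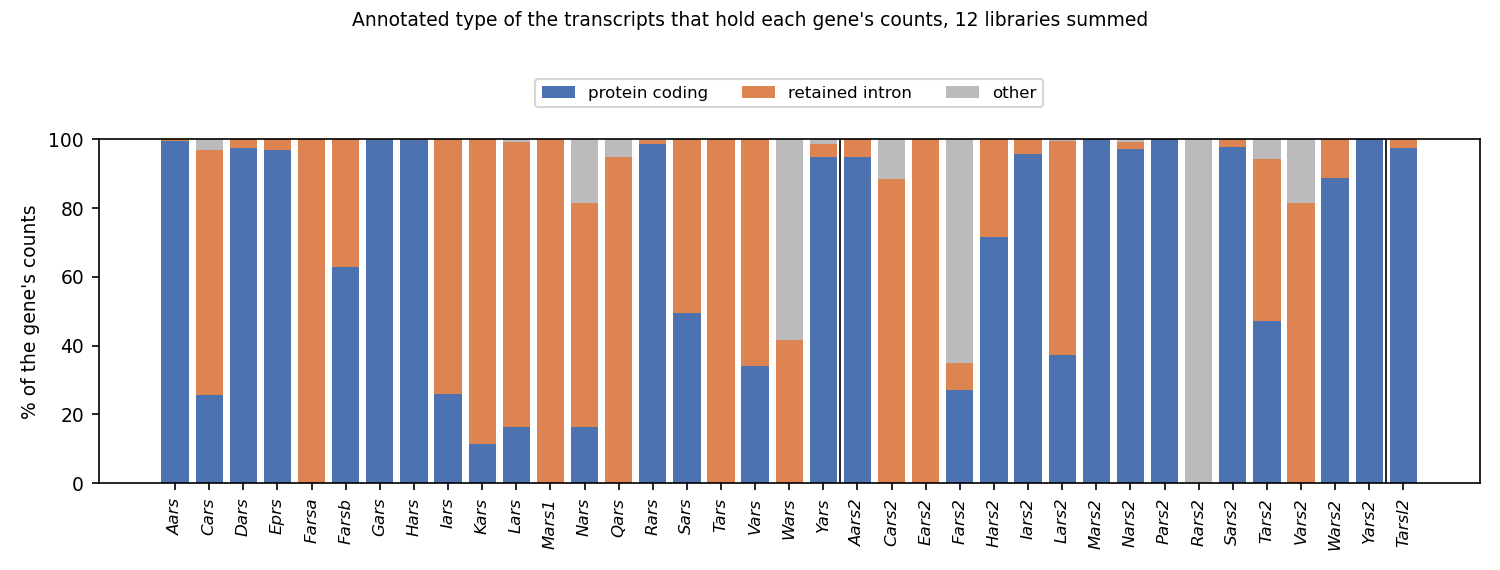
Share of each synthetase gene's counts, summed over 12 libraries, that lay on protein-coding, retained-intron and other annotated transcripts (vertical axis, percent; cytosolic genes left of the first line, mitochondrial genes between the lines, Tarsl2 at the right). Gars and Hars stand at 99.8% protein coding, while Farsa, Qars and Tars stand at 0.0%.

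Of the 37 genes, 35 had at least 10 counts in at least 2 libraries and were tested (19 cytosolic, 15 mitochondrial and Tarsl2). Mars1, with 38 counts, and Pars2, with 39, were not. Changes below are log2 fold changes ± standard error (SE), and their p-values come from edgeR's quasi-likelihood test, adjusted by the Benjamini-Hochberg method over the 19384 genes tested, with a threshold of 0.05.

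The promoters of the 3 cytosolic genes that fell most firmly are shown first. They hold matches to the core of the C/EBP-ATF response element, to which ATF4 binds. Of all genes with a window 4.51% had such a match, as did Iars and Tars, which were not called at 24 h against 0 h. Whether the matches bear on the fall was not tested. Each window runs from 250 bases before to 50 bases after the annotated start (RefSeq, GRCm38.p6), is written 5′ to 3′ on the gene's strand, and has matches to TGATGNAA, or to TTNCATCA where the match is on the opposite strand, in capitals. The windows lie at chr8:111033592-111033891 (Aars, + strand), chr6:55037751-55038050 (Gars, + strand) and chr4:129189653-129189952 (Yars, + strand).
Aars: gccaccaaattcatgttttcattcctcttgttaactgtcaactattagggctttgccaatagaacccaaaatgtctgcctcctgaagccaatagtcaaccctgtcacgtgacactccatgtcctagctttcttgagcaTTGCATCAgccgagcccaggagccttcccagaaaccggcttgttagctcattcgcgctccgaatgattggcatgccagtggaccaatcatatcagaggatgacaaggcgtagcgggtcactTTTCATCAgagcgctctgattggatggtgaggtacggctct
Gars: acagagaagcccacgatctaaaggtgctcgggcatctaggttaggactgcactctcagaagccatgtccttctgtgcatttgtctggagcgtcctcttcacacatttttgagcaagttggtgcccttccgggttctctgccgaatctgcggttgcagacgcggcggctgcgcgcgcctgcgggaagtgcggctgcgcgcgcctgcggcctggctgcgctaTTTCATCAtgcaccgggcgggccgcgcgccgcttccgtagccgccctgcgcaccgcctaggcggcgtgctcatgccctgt
Yars: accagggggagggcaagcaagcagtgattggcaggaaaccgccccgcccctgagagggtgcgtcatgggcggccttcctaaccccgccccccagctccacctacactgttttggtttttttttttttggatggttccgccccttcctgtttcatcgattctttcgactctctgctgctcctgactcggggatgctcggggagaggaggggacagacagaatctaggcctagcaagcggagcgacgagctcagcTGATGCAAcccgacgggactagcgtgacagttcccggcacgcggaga
The Aars window held 2 matches, which begin 112 bases before and 9 bases after the start. The match of Gars began 30 bases before the start and that of Yars 3 bases after it.

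The balance between the 2 classes of synthetase changed with time in both sorted fractions. Summed mitochondrial counts per 100 summed cytosolic counts, a ratio within a library that no scaling factor touches, started in tbGFP-negative libraries from 7.45 and 7.06 (0 h), were then 8.06 and 8.61 (6 h) and ended on 13.9 and 14.4 (24 h). In tbGFP-positive libraries the ratio began with 7.64 and 7.01, was 6.67 and 8.23 after 6 h and stood on 13.4 and 12.2 after 24 h. All 4 libraries at 24 h lay above the 8 earlier ones. The mean at 24 h was 1.95-fold that at 0 h in tbGFP-negative and 1.75-fold in tbGFP-positive cells. The fractions overlapped at 0 h, and in tbGFP-positive cells the 6 h libraries bracketed those at 0 h. An exact two-sided permutation test of 2 libraries against 2 cannot give a p below 0.333, so these sums are given as a description.

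The cytosolic sum was lower and the mitochondrial sum higher at 24 h than at 0 h in both fractions. The summed cytosolic level was 4790 and 4850 CPM in tbGFP-negative cells at 0 h and 2900 and 2790 CPM at 24 h, and in tbGFP-positive cells it was 4760 and 4230 CPM at 0 h and 3300 and 3280 CPM at 24 h. The mitochondrial sum was 357 and 342 CPM and then 402 and 402 CPM in tbGFP-negative cells, and 363 and 296 CPM and then 440 and 401 CPM in tbGFP-positive cells. At 6 h the cytosolic sum was 5340 and 5350 CPM in tbGFP-negative and 4830 and 4380 CPM in tbGFP-positive cells. The mitochondrial sum at 6 h was 431 and 461 CPM in tbGFP-negative cells, above its level at 24 h, and 322 and 360 CPM in tbGFP-positive cells. As shares of all counts in a library, with no scaling factor, the cytosolic sum was 0.556% and 0.582% at 0 h against 0.355% and 0.343% at 24 h in tbGFP-negative cells, and 0.408% and 0.374% against 0.288% and 0.313% in tbGFP-positive cells. The mitochondrial shares were 0.0414% and 0.0411% against 0.0493% and 0.0494%, and 0.0311% and 0.0262% against 0.0384% and 0.0382%. At 6 h they were 0.0391% and 0.0439%, and 0.0298% and 0.0324%, below those at 24 h in both fractions. Whether the mitochondrial sum in tbGFP-negative cells rose or fell from 6 to 24 h thus depended on the scale. Neither sum overlapped between 0 and 24 h on either scale. The median log2 change over all genes tested was also positive, at 0.23 (tbGFP-negative) and 0.09 (tbGFP-positive), or 0.28 and 0.16 with library totals alone. The median over the mitochondrial synthetases was 0.17 and 0.27, so in tbGFP-negative cells it lay below that of all genes. A few genes carried both sums: Aars, Eprs and Gars held 63.1% to 75.9% of the cytosolic counts, and Mars2 held 25% to 47.7% of the mitochondrial counts. Without Aars, Gars and Yars the ratio at 24 h was still 1.44-fold (tbGFP-negative) and 1.41-fold (tbGFP-positive) that at 0 h, and without Mars2 it was 2.02-fold and 1.72-fold. In bulk samples, fewer cells with a transcript and less of it per cell cannot be told apart.

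**Figure D2:**
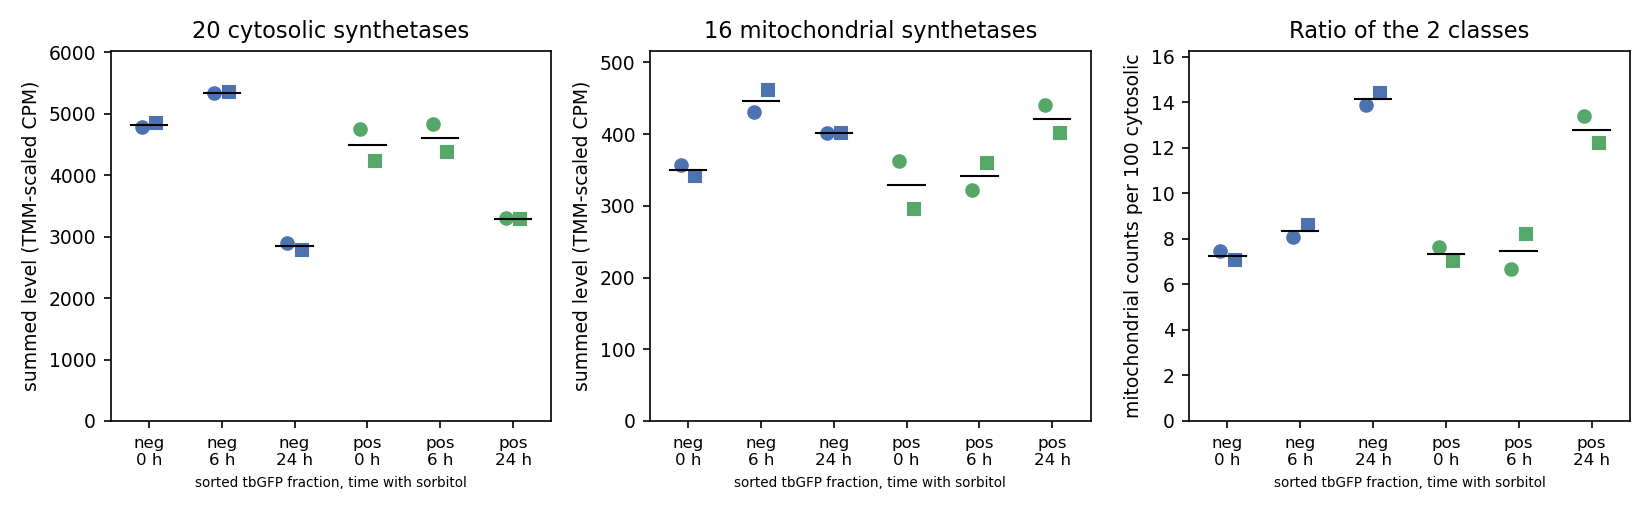
Summed TMM-scaled CPM of the 20 cytosolic genes (left) and 16 mitochondrial genes (middle), and summed mitochondrial counts per 100 cytosolic counts (right), by sorted fraction and hours of sorbitol; each point is 1 library and each bar the mean of 2. The 4 libraries at 24 h lie lowest in the cytosolic sum (2790 to 3300 CPM) and highest in the ratio (12.2 to 14.4).

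In tbGFP-negative cells at 24 h, alanyl-, glycyl- and tyrosyl-tRNA synthetase transcripts fell, and no mitochondrial synthetase passed the test. Aars, the cytosolic enzyme for alanine, went from 1040 and 1000 CPM at 0 h and 873 and 1010 CPM at 6 h to 370 and 322 CPM at 24 h. Gars, the glycine enzyme of both compartments, went from 1380 and 1340 CPM to 1500 and 1460 CPM and then to a mean of 629 ± 30.7 CPM (SD, n = 2), with 607 CPM in the lower library. Yars, the cytosolic enzyme for tyrosine, went from 206 and 214 CPM to 239 and 221 CPM and then to 90.6 and 88.7 CPM. For each of these genes both libraries at 24 h lay below all 4 earlier tbGFP-negative libraries, while for none of the 3 did both 6 h libraries lie below both at 0 h.

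Aars fell by 1.56 ± 0.16 on the log2 scale (adjusted p = 3.48e-05), Gars fell by 1.11 ± 0.14 (adjusted p = 0.000246) and Yars fell by 1.23 ± 0.17 (adjusted p = 0.000487, edgeR's quasi-likelihood test, Benjamini-Hochberg adjusted). Thus 0 cytosolic members rose and 3 of 19 fell, where 1.29% of all genes tested were called lower and 3.99% were called in either direction. The cytosolic median change was -0.34 and the median over all genes 0.23. Of the 7 cytosolic genes measured on coding transcripts, 6 had negative values, with a median of -0.56. Rars, the arginine enzyme, was at 314 and 309 CPM at 0 h and 210 and 212 CPM at 24 h, a change of -0.56 ± 0.15 (adjusted p = 0.0572), and Eprs, the bifunctional enzyme for glutamate and proline, was at 1100 and 1230 CPM and then 831 and 829 CPM (-0.49 ± 0.14, adjusted p = 0.0727). Both sets of values were separated without overlap, but neither gene passed. Dars (aspartate) and Hars (histidine) showed 0.07 ± 0.16 and -0.05 ± 0.17.

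The number of cytosolic genes called depended on the 2 tbGFP-positive libraries at 6 h, which had the fewest genes with counts. They are on neither side of this comparison, but enter the estimate of spread, the scaling factors and the choice of genes tested. Leaving them out moved the median over all genes from 0.23 to 0.11. Without both of them, 7 cytosolic genes fell, namely Aars, Cars, Eprs, Gars, Nars, Rars and Yars, where 4.7% of the 18471 genes tested were called lower. Leaving out either 1 of them gave the same 7 genes. Leaving out either tbGFP-positive library at 0 h, either tbGFP-negative library at 6 h or the second tbGFP-positive library at 24 h gave 5, adding Eprs and Rars to the 3.

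Among the mitochondrial genes in the same comparison, 0 of 15 were called with edgeR, 0 with DESeq2, and 0 had an unadjusted p under 0.05. Their median change was 0.17, and upper-quartile scaling, which also moved the median over all genes from 0.23 to 0.05, turned it to -0.01. Iars2, the mitochondrial isoleucine enzyme, was at 56.0 and 44.9 CPM at 0 h, 51.7 and 61.1 CPM at 6 h and 62.3 and 66.9 CPM at 24 h. Mars2, the mitochondrial methionine enzyme, was at 127 and 124 CPM, 205 and 218 CPM, and 137 and 132 CPM. The level of Mars2 at 6 h stood apart from the other times without passing the test (0.75 ± 0.24, adjusted p = 0.106). Lars2, the mitochondrial leucine enzyme, stayed between 4.48 and 8.25 CPM in the 6 tbGFP-negative libraries.

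The tbGFP-positive cells showed a smaller number of changes at 24 h in the same direction. Aars was at 1190 and 883 CPM at 0 h, 918 and 842 CPM at 6 h and 552 and 537 CPM at 24 h. Yars was at 165 and 152 CPM, 149 and 169 CPM, and 79.7 and 96.0 CPM, and Gars was at 1270 and 1170 CPM, 1530 and 1180 CPM, and 735 and 806 CPM. Each gene was lower in both libraries at 24 h than in any of the 4 earlier tbGFP-positive libraries.

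Aars fell by 0.93 ± 0.16 (adjusted p = 0.0173) and Yars fell by 0.85 ± 0.17 (adjusted p = 0.0387), while Gars, at -0.66 ± 0.14, did not pass (adjusted p = 0.0584, all edgeR quasi-likelihood tests, Benjamini-Hochberg adjusted). These 2 of 19 cytosolic genes stand beside 0.248% of all genes called lower and 0.552% called in either direction. The call of Yars was lost in 14 of 22 alternative analyses and that of Aars in 4 of 22, namely without the first tbGFP-negative library at 0 h (adjusted p = 0.0515), the first tbGFP-positive library at 0 h (-0.74, adjusted p = 0.0848) or either tbGFP-positive library at 24 h (adjusted p = 0.287 and 0.135). Of the mitochondrial genes 0 of 15 were called with edgeR and 0 with DESeq2, and 2 had an unadjusted p under 0.05. Iars2 had the smallest adjusted p among them, at 41.7 and 31.6 CPM at 0 h, 53.7 and 49.4 CPM at 6 h and 56.6 and 65.4 CPM at 24 h (0.73 ± 0.24, adjusted p = 0.279).

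Whether the 24 h change differed between the fractions was tested directly. The difference was called for 0 synthetases of either class (edgeR and DESeq2), with an unadjusted p under 0.05 for 3 cytosolic and 0 mitochondrial genes, where 0.97% of all genes were called. For Aars the tbGFP-positive change exceeded the tbGFP-negative change by 0.63 ± 0.23 (adjusted p = 0.545), for Rars by 0.51 ± 0.22 (adjusted p = 0.805) and for Gars by 0.45 ± 0.20 (adjusted p = 0.88). The fall of these transcripts is thus not shown to be weaker in tbGFP-positive cells. Both 24 h comparisons use their own 0 h libraries, so their values stand side by side as separate measurements within 1 fit.

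**Figure D3:**
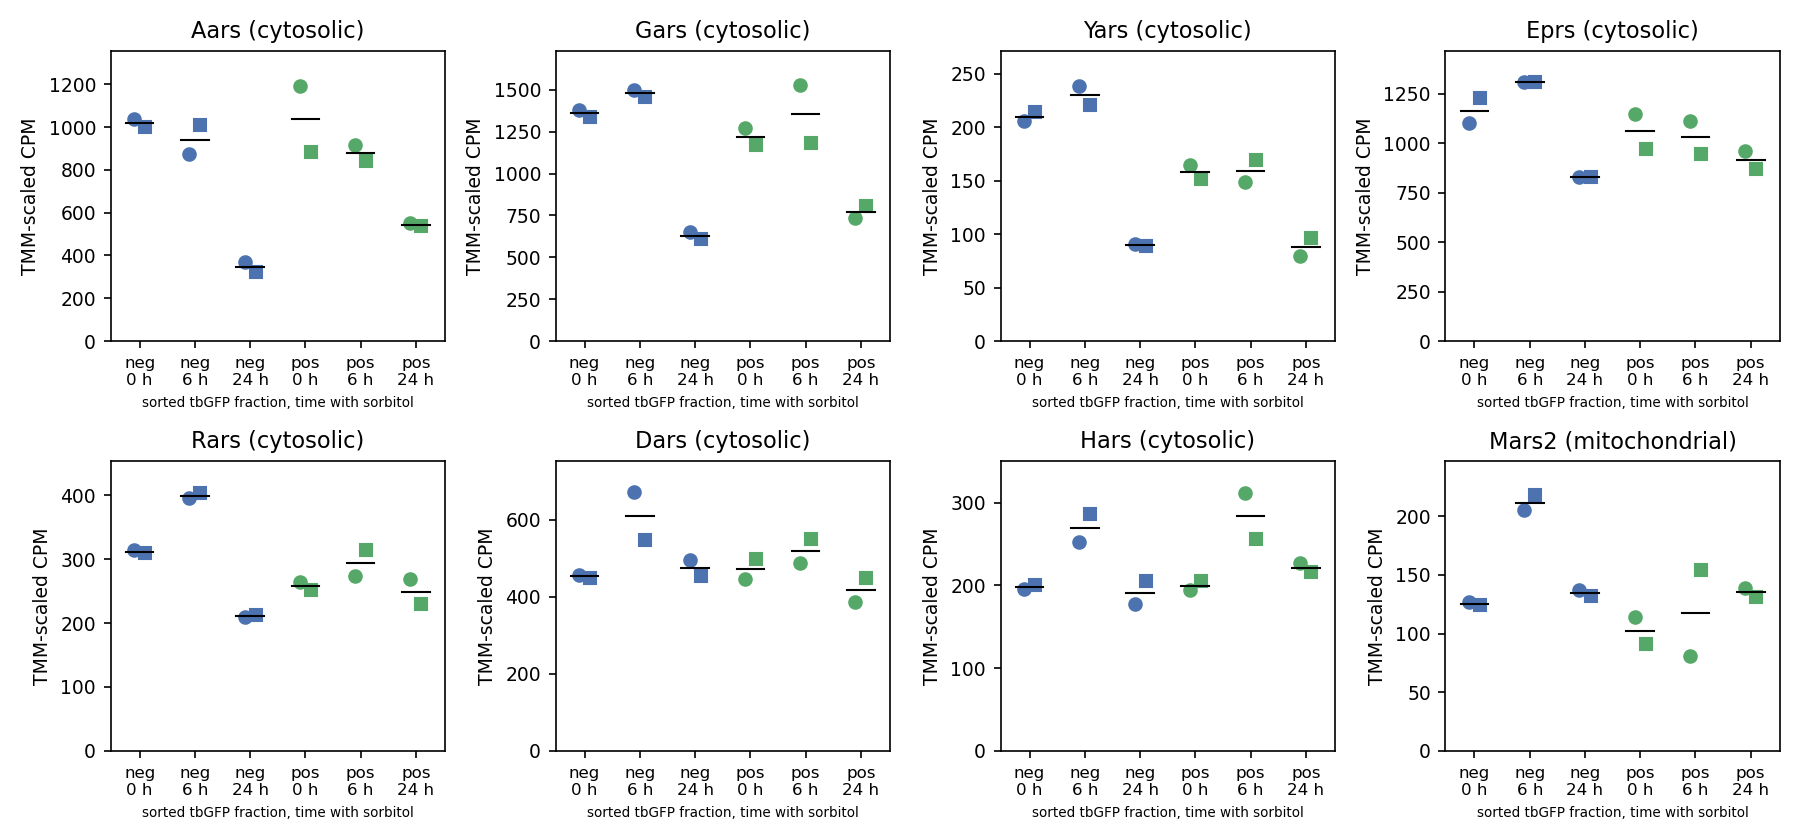
TMM-scaled CPM (vertical axes, each from 0) of 7 cytosolic synthetases and Mars2, the 8 most abundantly counted genes measured on coding transcripts, in each library by fraction and hours of sorbitol (circles, library 1; squares, library 2; bars, means). Aars, Gars and Yars are lowest in the 4 libraries at 24 h, Dars and Hars at 24 h overlap earlier libraries, and Mars2 is highest in the tbGFP-negative libraries at 6 h (205 and 218 CPM).

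**Figure D4:**
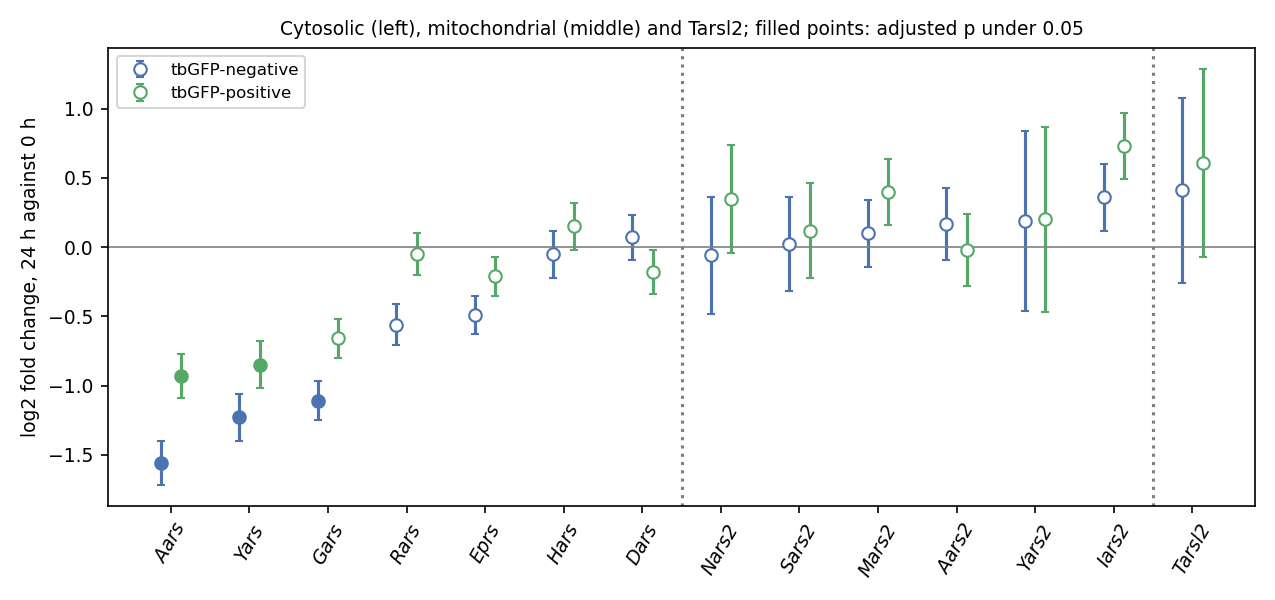
Log2 fold change from 0 h to 24 h (points) and its SE (bars) for the 14 synthetases measured on coding transcripts, in each sorted fraction; filled points passed the adjusted threshold. The filled points are Aars, Yars and Gars in tbGFP-negative cells (-1.56 to -1.11) and Aars and Yars in tbGFP-positive cells (-0.93 and -0.85), and no mitochondrial gene is filled.

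Aars, Gars and Yars, the cytosolic genes called at 24 h with all 12 libraries, were on a list of synthetases known as ATF4 targets, which was drawn up with results of these data known and so is no independent evidence. In tbGFP-negative cells, 3 of the 11 tested synthetases on that list fell, beside 1.29% of all genes called lower, and 10 of 11 had negative values, with a median of -1.08. That median is the value of Iars, which had 26.1% of its counts on coding transcripts. The 8 cytosolic synthetases outside the list had 0 calls, 6 positive values and a median of 0.22, close to the 0.23 over all genes. Of these 8, only Dars, Hars and Rars were measured on coding transcripts, at 0.07, -0.05 and -0.56. Farsa, Farsb, Kars, Qars and Vars, all with positive values, had 0.0% to 63.0% of their counts there. The split by list therefore rests largely on genes not measured on coding transcripts. It was also not kept in every fit: Rars, which is outside the list, also fell without the tbGFP-positive libraries at 6 h and in the fits that called 5 genes. In tbGFP-positive cells the medians were -0.51 and -0.08. Of the 11, only Aars, Eprs, Gars and Yars were measured on coding transcripts, while Cars, Iars, Lars, Nars, Sars, Tars and Wars had 0.0% to 49.5% of their counts there. Nars, the asparagine enzyme, was at 14.6 and 15.6 CPM at 0 h, 8.05 and 5.61 CPM at 6 h and 5.48 and 4.95 CPM at 24 h in tbGFP-negative cells, and at 6.70 and 9.39 CPM, 1.21 and 3.26 CPM, and 4.08 and 5.45 CPM in tbGFP-positive cells. Its tbGFP-negative libraries at 24 h lay below the others of that fraction, with a change of -1.53 that did not pass (adjusted p = 0.225).

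Sars, the serine enzyme, and Tars, the threonine enzyme, passed in no comparison. Sars was at 12.7 and 16.2 CPM at 0 h, 12.6 and 16.6 CPM at 6 h and 10.9 and 13.6 CPM at 24 h in tbGFP-negative cells, and at 10.7 and 17.0 CPM, 6.64 and 6.67 CPM, and 7.28 and 8.69 CPM in tbGFP-positive cells. Tars was at 11.6 and 12.6 CPM, 9.06 and 10.6 CPM, and 11.4 and 7.74 CPM in tbGFP-negative cells, and at 8.81 and 7.17 CPM, 1.21 and 6.24 CPM, and 10.1 and 10.5 CPM in tbGFP-positive cells. In tbGFP-negative cells the times overlapped for Sars, and for Tars the 0 h libraries lay narrowly above the others. Kars, the lysine enzyme of both compartments, ranged from 0.0 to 7.66 CPM and passed in none either: it was at 3.73 and 5.68 CPM at 0 h, 3.52 and 1.66 CPM at 6 h and 5.07 and 5.84 CPM at 24 h in tbGFP-negative cells, and at 2.49 and 7.66 CPM, 1.81 and 0.0 CPM, and 4.97 and 3.83 CPM in tbGFP-positive cells.

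Other known ATF4 targets, outside the synthetases, are enzymes of serine synthesis, amino acid transporters and stress regulators. This list was also drawn up with results of these data known, so its counts are a description and no independent evidence. In tbGFP-negative cells at 24 h, 10 of 27 tested members fell and 0 rose, beside 1.29% of all genes called lower and 2.7% called higher, with a median of -1.30. Chac1, an enzyme that degrades glutathione, was at 121 and 96.4 CPM at 0 h and 6.31 and 3.68 CPM at 24 h, and fell by 4.42 ± 0.44 (adjusted p = 2.3e-05). The cationic amino acid transporter Slc7a1 fell by 1.40 ± 0.18 (adjusted p = 0.000181), Phgdh, the first enzyme of serine synthesis, fell by 1.88 ± 0.25 (adjusted p = 0.000288), and the pseudokinase Trib3 fell by 1.87 ± 0.29 (adjusted p = 0.00128, edgeR's quasi-likelihood test, Benjamini-Hochberg adjusted). In tbGFP-positive cells at 24 h, 1 of 27 rose (the amino acid transporter Slc38a2) and 1 fell (Chac1), beside 0.304% of all genes called higher and 0.248% called lower, with a median of -0.57. Atf4 itself held 0.494 to 5.32 CPM and Asns 0.0 to 4.16 CPM. Both passed in no comparison, with too few counts to describe their course. Ddit3 also passed in none.

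The 24 h count of 10 became 16 without the 2 tbGFP-positive libraries at 6 h, where 4.7% of all genes were called lower, and 6 to 16 when each library was left out in turn. At 6 h the list did not move one way: in tbGFP-negative cells Slc38a2, Ddit4 and Sesn2 rose while Chac1 and the glutamine transporter Slc1a5 fell.

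Matches to the C/EBP-ATF core were found in 5 of the 13 cytosolic synthetases with a promoter window (Aars, Gars, Iars, Tars and Yars, 38.5%) and in 0 of 14 mitochondrial synthetases. Over all genes with a window, 1219 of 27025 (4.51%) had a match, and over all windows 1304 of 32851 (3.97%). By list, 5 of 8 ATF4-target synthetases with a window had a match (62.5%) and 0 of 5 other cytosolic synthetases. The 3 synthetases that passed at 24 h all carried one, but so did Iars and Tars, whose full-length transcripts were hardly measured. A match describes letters in the window and does not show binding, and the ATF4 list and the motif are not independent, since such matches are among the evidence used to name ATF4 targets.

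At 6 h no synthetase of tbGFP-negative cells passed the test with all 12 libraries. Of 19 cytosolic and 15 mitochondrial genes, 0 and 0 were called with edgeR and 0 and 0 with DESeq2, with an unadjusted p under 0.05 for 3 and 1, where 4.44% of all genes were called. The cytosolic median was 0.10 and the mitochondrial median 0.04. The values of Dars (671 and 548 CPM against 456 and 450 CPM at 0 h) and Hars (252 and 286 CPM against 195 and 200 CPM) were higher in both 6 h libraries, with adjusted p-values of 0.157 and 0.167 in edgeR's quasi-likelihood test. Cars, the cysteine enzyme, was at 29.5 and 27.7 CPM at 0 h, 54.3 and 52.6 CPM at 6 h and 12.4 and 9.77 CPM at 24 h (0.90 at 6 h, adjusted p = 0.348). Cars and Mars2 passed at 6 h in a fit without the tbGFP-positive libraries at 6 h, and in one of the 4 compared libraries alone.

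In tbGFP-positive cells at 6 h, 4 synthetases were called, and 3 of them turned on libraries with a count of 0. Yars2, the mitochondrial tyrosine enzyme, was at 4.79 and 5.93 CPM at 0 h, 0.0 and 0.0 CPM at 6 h and 6.39 and 5.89 CPM at 24 h. In tbGFP-negative cells it was at 8.96 and 7.27 CPM, 8.05 and 8.73 CPM, and 14.0 and 4.44 CPM. With 3 counts in the group taken as the floor, Yars2 was at least 18.3-fold lower at 6 h than at 0 h (adjusted p = 0.00543). It was at least 28.9-fold lower than in tbGFP-negative cells at 6 h (adjusted p = 0.000438, edgeR's quasi-likelihood test, Benjamini-Hochberg adjusted). Each call was lost in 1 of 21 alternatives, the same test with only the libraries compared (adjusted p = 0.417 and 0.0924). That fit called 0.0288% of all genes against 0 h and 4.29% between the fractions.

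Lars, the cytosolic leucine enzyme, was also at 0 counts in both libraries and at least 8.94-fold lower than at 0 h (adjusted p = 0.0264), from 24 counts at 0 h, mostly on retained-intron transcripts, a call lost on the largest transcript alone and without the first tbGFP-positive library at 0 h. Wars, the tryptophan enzyme, was at 0.0 and 0.0 CPM at 0 h, 3.02 and 3.69 CPM at 6 h and 0.71 and 0.294 CPM at 24 h in tbGFP-positive cells, and at 1.49 and 1.02 CPM, 2.52 and 1.46 CPM, and 2.28 and 1.40 CPM in tbGFP-negative cells. It was at least 10.7-fold higher at 6 h than at 0 h in tbGFP-positive cells (adjusted p = 0.0366), a call lost in 13 of 19 alternatives. Its counts lay on nonsense-mediated decay and retained-intron transcripts, with 0.0% on coding ones. Bounds cover counting error only.

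Aars2, the mitochondrial alanine enzyme, gave the one 6 h change that was measured with counts in every library. It was at 44.4 and 34.8 CPM at 0 h, 17.5 and 20.4 CPM at 6 h and 44.4 and 33.7 CPM at 24 h in tbGFP-positive cells, and between 40.3 and 49.4 CPM in the 6 tbGFP-negative libraries. Both tbGFP-positive libraries at 6 h lay below the other 10. Aars2 fell by 1.06 ± 0.27 in tbGFP-positive cells (adjusted p = 0.0352), and at 6 h it was lower there than in tbGFP-negative cells, at -1.18 ± 0.27 (adjusted p = 0.00987, edgeR's quasi-likelihood test, Benjamini-Hochberg adjusted). The fall from 0 h was lost in 7 of 21 alternatives, 5 of them without 1 library each of the tbGFP-negative 0 h, tbGFP-positive 0 h or either 24 h group, and the difference between fractions in 2 of 21, one of them without the first tbGFP-negative library at 6 h.

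Together these made 2 of 19 cytosolic genes (1 higher and 1 lower) and 2 of 15 mitochondrial genes (both lower) called at 6 h in tbGFP-positive cells, where 5.9% of all genes were called. The change at 6 h differed between fractions for 0 synthetases with edgeR (unadjusted p under 0.05 for 2 cytosolic and 2 mitochondrial genes, 0.17% of all genes called) and for 1 with DESeq2, Yars2, whose adjusted p in edgeR's quasi-likelihood test was 0.0582. The 2 libraries concerned had the fewest genes with counts of all 12. The part of this in the counts of 0 was not tested.

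Between the fractions, 1 synthetase was called at every time. It was 1 of 15 mitochondrial genes tested, beside 6.66%, 6.92% and 5.35% of all genes called higher in tbGFP-positive cells at 0, 6 and 24 h. The count therefore does not set the synthetases apart from other genes, and what follows describes this gene alone. Nars2, the mitochondrial asparagine enzyme (chr7:96951505-97064758, + strand, GENCODE M21 on GRCm38), was higher in tbGFP-positive than in tbGFP-negative cells at 0, 6 and 24 h. Its levels were 15.3 and 12 CPM at 0 h, 10.9 and 8.11 CPM at 6 h and 13.8 and 12.2 CPM at 24 h in tbGFP-negative cells. In tbGFP-positive cells they were 42.3 and 63.3 CPM, 81.5 and 29.2 CPM, and 66.2 and 68.6 CPM. All 6 tbGFP-positive libraries lay above all 6 tbGFP-negative ones, and the widest gap between libraries of 1 group was at 6 h in tbGFP-positive cells.

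The difference in Nars2 was 1.97 ± 0.42 at 0 h (adjusted p = 0.00629), 2.52 ± 0.43 at 6 h (adjusted p = 0.000868) and 2.38 ± 0.41 at 24 h (adjusted p = 0.0012, edgeR's quasi-likelihood test, Benjamini-Hochberg adjusted). It did not differ detectably between the times: the gap at 6 h exceeded that at 0 h by 0.55 ± 0.58 (adjusted p = 0.729) and the gap at 24 h by 0.41 ± 0.57 (adjusted p = 1.0). The call held in 22 of 22 alternatives at 24 h, in all but 1 of 21 at 6 h and in all but 2 of 22 at 0 h. At 0 h it was lost without the second tbGFP-negative library (1.78, adjusted p = 0.153) and without the second tbGFP-positive library (1.66, adjusted p = 0.0816). At 6 h the size depended on the library kept, with a difference of 3.06 without the second tbGFP-positive one and 1.57 without the first. Of the Nars2 counts, 97.2% lay on its full-length coding transcript of 3778 bases, 1802 of which belong to no other transcript, so that the measure rests on exons of the coding mRNA. The time course within either fraction moved Nars2 by -0.50 to 0.35 with no call. Its cytosolic counterpart Nars was at -0.91, -1.54 and -0.13 in the comparisons between fractions, with none called. Only 16.3% of the 503 Nars counts lay on coding transcripts, so the 2 genes were not measured alike.

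Iars, the cytosolic isoleucine enzyme, was higher in tbGFP-positive cells at 24 h, but on a different kind of transcript. Its gene sum was 6.72 and 6.25 CPM at 0 h, 4.03 and 5.82 CPM at 6 h and 2.07 and 4.06 CPM at 24 h in tbGFP-negative cells, and 15.7 and 21 CPM, 5.13 and 20 CPM, and 21.7 and 15.8 CPM in tbGFP-positive cells. The fractions overlapped at 6 h and not at 0 or 24 h. The difference at 24 h was 2.61 ± 0.62 (adjusted p = 0.0179, edgeR's quasi-likelihood test, Benjamini-Hochberg adjusted). A single retained-intron transcript of 889 bases at chr13:49708216-49715156 (+ strand) held 58.3% of the Iars counts, with 3 and 10 counts in tbGFP-negative and 83 and 73 in tbGFP-positive libraries at 24 h. The short coding transcript of 401 bases had 16 and 16 against 15 and 15 counts. Summed over coding transcripts only, the difference was 0.36 (adjusted p = 0.999). The call on the gene sum was also lost without either tbGFP-negative library at 24 h (adjusted p = 0.252 and 0.0589) and without the first tbGFP-positive one (adjusted p = 0.16). The full-length Iars mRNA, with 30 bases of its own, had 2 counts in all 12 libraries, so its level in the fractions was not measured.

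**Figure D5:**
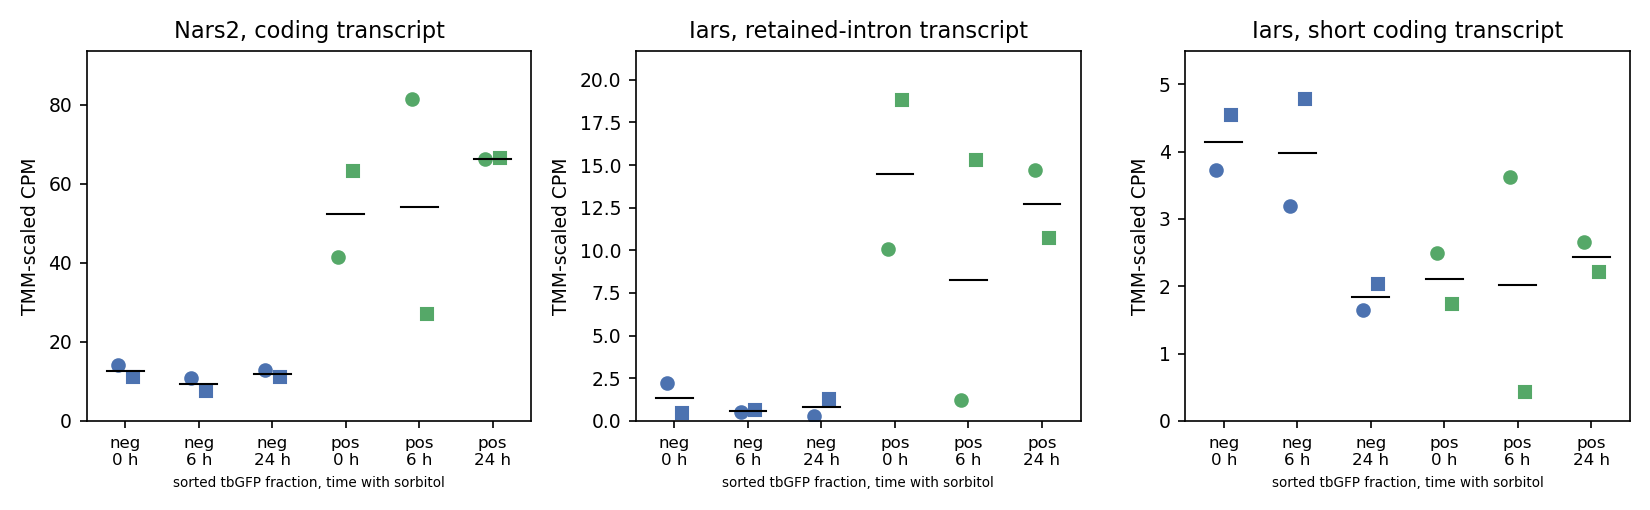
TMM-scaled CPM of 3 transcripts in each library by fraction and hours of sorbitol (points, libraries; bars, means of 2). The coding Nars2 transcript and the retained-intron Iars transcript are higher in tbGFP-positive libraries (27.0 to 81.5 and 1.21 to 18.8 CPM) than in tbGFP-negative ones (7.69 to 14.2 and 0.31 to 2.24 CPM) except that the first tbGFP-positive library at 6 h (1.21 CPM, Iars) lies below 1 tbGFP-negative library at 0 h (2.24 CPM) and 1 at 24 h (1.27 CPM). The short coding Iars transcript overlaps between the fractions over all times. Within a time it is higher in tbGFP-negative libraries at 0 h (3.73 and 4.54 against 2.49 and 1.73 CPM). At 24 h it is lower there (1.65 and 2.03 against 2.66 and 2.21 CPM).

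Few other synthetases differed between the fractions. At 0 h, 0 of 19 cytosolic genes were called (0 with DESeq2, 3 with an unadjusted p under 0.05) and 1 of 15 mitochondrial genes, Nars2, where 7.11% of all genes were called and 6.66% called higher. At 24 h Aars was higher in tbGFP-positive cells by 0.65 ± 0.16 (adjusted p = 0.0212), with 552 and 537 CPM against 370 and 322 CPM and no overlap. With Iars this made 2 of 19 cytosolic genes higher and 0 lower, beside Nars2 as 1 of 15 mitochondrial genes, where 5.46% of all genes were called and 5.35% called higher. The difference in Aars depended on the scaling: it was 0.46 with upper-quartile factors (adjusted p = 0.173) and 0.22 with library totals alone (adjusted p = 0.53, edgeR's quasi-likelihood test). It also did not pass without the second tbGFP-negative library at 24 h (adjusted p = 0.2) or without the first tbGFP-positive one (adjusted p = 0.14).

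At 6 h, 12.1% of all genes were called between the fractions and 6.92% were called higher in tbGFP-positive cells. Of the mitochondrial genes Nars2 was higher and Yars2, Aars2 and Mars2 were lower, 4 of 15 in all, and of the cytosolic genes Lars was lower, 1 of 19. Mars2 was at 80.6 and 154 CPM in tbGFP-positive against 205 and 218 CPM in tbGFP-negative cells with a difference of -0.84 ± 0.24 (adjusted p = 0.0358, edgeR's quasi-likelihood test), and the call was lost in 10 of 21 alternatives. In tbGFP-positive cells at 0 and 24 h Mars2 was at 114 and 90.7 CPM and at 139 and 131 CPM, so its 6 h libraries bracketed those values.

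The remaining synthetases were tested without a call in any of the 7 comparisons, or not tested. Tarsl2 was at 5.97 and 6.13 CPM at 0 h, 4.70 and 6.24 CPM at 6 h and 7.65 and 8.5 CPM at 24 h in tbGFP-negative cells, and at 5.94 and 4.20 CPM, 16.9 and 3.55 CPM, and 6.74 and 8.83 CPM in tbGFP-positive cells. Only 1 library, the first tbGFP-positive one at 6 h, stood apart. Lars2 in tbGFP-positive cells was at 5.75 and 5.93 CPM, 1.81 and 3.69 CPM, and 6.03 and 6.18 CPM, lower in both 6 h libraries without passing (adjusted p = 0.34 against 0 h in edgeR's quasi-likelihood test). Sars2, the mitochondrial serine enzyme, ranged from 35.1 to 74.9 CPM, with its extremes in tbGFP-positive libraries. Cars2, Ears2, Hars2 and Tars2 ranged from 0.494 to 24.9 CPM, Farsa and Qars from 1.51 to 11.9 CPM, and Fars2, Rars2, Vars2, Wars2, Pars2, Mars1, Vars and Farsb, with at most 135 counts in all 12 libraries, gave no usable comparison.

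Other lists of the translation machinery had few or no calls at 24 h, where 3.99% (tbGFP-negative) and 0.552% (tbGFP-positive) of all genes were called. Beside these shares, 0 calls do not set short lists apart from other genes. Of the 3 scaffold genes of the multi-synthetase complex (Aimp1, Aimp2 and Eef1e1) 0 were called in any comparison, and of its 7 tested synthetases 0 were called at 24 h against 0 h in either fraction, with medians of -0.49 and -0.05 against 0.23 and 0.09 over all genes. Its members Eprs and Rars fell in tbGFP-negative cells in the fits that called 5 or 7 genes. Of 9 genes of cytosolic elongation and termination 0 were called at 24 h in either fraction. Their levels ran from Eif5a at 0.0 to 5.57 CPM and Eef1a1 at 4.54 to 28.0 CPM to Eef2 at 4630 to 9170 CPM. How far genes outside the synthetases were measured on coding transcripts was not assessed, so a lack of calls in these lists can also reflect missing reads. Mitochondrial translation and tRNA processing factors had 0 of 19 called at 24 h in either fraction, with medians of 0.19 and 0.24. Of 68 tested mitochondrial ribosomal protein genes 1 was called at 24 h in each fraction, with medians of 0.14 and 0.02. The mitochondrial synthetases, at 0.17 and 0.27, thus had medians on the same side as these lists, all near the medians over all genes (0.23 and 0.09).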

How the data were processed

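The data are RNA-seq read counts per Ensembl transcript in 12 libraries, deposited by the authors as whole-number counts, per the file headers, with no normalization. Per the labels' protocols, libraries came from the TruSeq stranded total RNA kit. The submitters' processing notes name FastQC, HISAT2, featureCounts, DESeq2 and mm10 without versions, and the counting mode is not given in the sources used here. The design had assumed counts per gene. Counts were summed by gene with GENCODE M21 (GRCm38): 141536 of 142446 transcripts matched, and the 910 others held 0.0606% to 0.0903% of a library. The 19384 genes that reached 10 counts in 2 or more libraries were fitted in edgeR 4.0.16 (R 4.3.3) with TMM factors, 6 group means and robust quasi-likelihood tests, for 7 comparisons and 2 interactions between fraction and time, with Benjamini-Hochberg adjustment over all genes at 0.05. The common dispersion was 0.208. The fit was tested on simulated data. CPM are scaled by the TMM library sizes. Bounds for a group at 0 use 3 counts over the group, and there are no molecular identifiers. Depths are given in the report, and they set the precision of genes with few counts.

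The synthetase genes and gene lists were chosen with earlier results of these data known. Synthetases are named where called, or where measured on coding transcripts, or as part of a fixed panel, and other genes at most 3 per list and comparison by adjusted p, plus Atf4, Ddit3, Trib3, Asns and Chac1. Motif matches were searched in RefSeq promoter windows on GRCm38.p6. Alternatives were DESeq2 1.42.0, other scaling factors, no filter, single or coding transcripts, fewer libraries and a replicate block. Python 3.11.15 and matplotlib 3.10.9 were used for summaries and plots.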

Additional observations from a re-analysis of the deposited data

How the results depend on the processing

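The fall of Aars, Gars and Yars in tbGFP-negative cells at 24 h passed in 22 of 22 alternatives, and no single synthetase called with all 12 libraries changed sign in an alternative. The mitochondrial median there turned from 0.17 to -0.01 with upper-quartile factors. The cytosolic count of 3 there became 5 with DESeq2 size factors, 5 with upper-quartile factors, 5 on coding transcripts only, 6 without a filter, 6 with DESeq2, and 7 with only the libraries compared or without both tbGFP-positive libraries at 6 h (3 to 7 leaving out 1 library). The mitochondrial count stayed at 0. Shares of all genes called moved too, from 3.99% with all 12 libraries. They were 4.1% with DESeq2 size factors, 4.23% with upper-quartile factors, 7.36% on coding transcripts, 2.84% without a filter and 11.1% with DESeq2. They were 20.8% with only the libraries compared and 10.4% without both tbGFP-positive libraries at 6 h. Fits on coding transcripts only, and ratios without named genes, were chosen after seeing the data. The cause of these shifts was not tested. The counts that follow stand beside shares of all genes called that also moved with the fit. With only the libraries compared, 29.4% of all genes were called at 6 h in tbGFP-negative cells. In tbGFP-positive cells that fit called 0.0288% at 6 h and 1.05% at 24 h. Between fractions at 0, 6 and 24 h that fit called 11.4%, 4.29% and 13.7%, and upper-quartile factors called 8.77%, 18.8% and 5.26%.

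At 6 h in tbGFP-negative cells, the cytosolic count of 0 became 5 with only the libraries compared and 1 without both tbGFP-positive libraries at 6 h (0 to 1 leaving out 1 library), and the mitochondrial count of 0 became 1 and 1 (0 to 1). At 6 h in tbGFP-positive cells, the cytosolic count of 2 became 1 without a filter, 0 on the largest transcript, 0 on coding transcripts, 4 with DESeq2 and 0 with only the libraries compared (0 to 6 leaving out 1 library), and the mitochondrial count of 2 became 0 with only the libraries compared (1 to 3). At 24 h in tbGFP-positive cells, the cytosolic count of 2 became 1 with upper-quartile factors, 1 with library totals and 1 with only the libraries compared (0 to 3), and the mitochondrial count of 0 became 1 (Ears2) without both tbGFP-positive libraries at 6 h (0 to 1).

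Between fractions at 0 h, the cytosolic count of 0 became 4 (Eprs, Gars, Rars and Yars, lower) with upper-quartile factors or library totals, and 1 with only the libraries compared or without both tbGFP-positive libraries at 6 h (0 to 1). The mitochondrial count of 1 became 2 with each of those scalings (0 to 1). Between fractions at 6 h, the cytosolic count of 1 became 7 with upper-quartile factors, 3 on the largest transcript, 2 with DESeq2 and 0 with only the libraries compared (0 to 7), and the mitochondrial count of 4 became 0 with only the libraries compared (2 to 5). At 24 h the cytosolic count of 2 became 1 with upper-quartile factors and 1 on coding transcripts (0 to 2), and the mitochondrial count of 1 became 2 with only the libraries compared (1 to 1). For the 6 h interaction the cytosolic range was 0 to 1, and the mitochondrial count of 0 became 1 without a filter and 1 with DESeq2 (0 to 3). For the 24 h interaction it was 0 to 0.

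The mitochondrial to cytosolic ratio in tbGFP-negative cells at 6 h, 1.15-fold that at 0 h, was 1.21 on coding transcripts, 1.05 without Aars, Gars and Yars, 0.943, below the level at 0 h, without Mars2 and 1.21 over the genes measured on coding transcripts. At 24 h, 1.95-fold became 1.86, 1.44, 2.02 and 1.87 in that order, and 1.8 without Kars and Gars. In tbGFP-positive cells at 24 h, 1.75-fold became 1.41 without Aars, Gars and Yars. Depth limits genes with few counts, since in groups at 0 only bounds could be given.

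Same-numbered libraries did not deviate together (correlations of -0.04 to 0.03 over 15 pairs of groups). With 2 libraries a group, counting noise can hide a shared culture or sort, so this does not settle whether the numbers pair them. With the replicate block the cytosolic counts became 1 at 6 h and 1 at 24 h in tbGFP-positive cells, and the mitochondrial count at 6 h became 1. That fit called 3.98% of all genes at 6 h and 0.49% at 24 h in those cells.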

Other observations

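The 1 mitochondrial ribosomal protein gene called higher at 24 h in both fractions was Mrps6, singled out after its values were seen. It held 0.0 to 0.747 CPM at 0 h and 5.17 to 31.1 CPM at 6 and 24 h. Its log2 changes from 0 h were 4.08 and 3.49 at 6 and 24 h in tbGFP-negative cells (adjusted p = 0.00819 and 0.019, edgeR's quasi-likelihood test, Benjamini-Hochberg adjusted). The tbGFP-positive libraries at 0 h held 2 counts and 0 counts, so no fold is given there, and those at 6 and 24 h held 36 to 219 counts (adjusted p = 0.00199 and 0.0164 against 0 h). In the annotation (GENCODE M21, GRCm38) Mrps6 spans chr16:92058270-92112227 on the + strand, and Slc5a3, the myo-inositol transporter gene known for its response to hyperosmolarity, lies inside it at chr16:92058322-92087473 on the same strand. Slc5a3 rose by 3.65 and 3.53 in tbGFP-negative cells and by 3.06 and 2.85 in tbGFP-positive cells at 6 and 24 h (adjusted p = 1.72e-06, 5.65e-07, 1.14e-05 and 0.000106). Its levels were 25.8 to 51.9 CPM at 0 h and 283 to 360 CPM later. Whether reads of the 2 overlapping genes were told apart was not tested.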
